A study of Mus musculus with 11 samples.

Results

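The genes described here encode enzymes that conjugate or oxidise odorants and other foreign molecules in the main olfactory epithelium (MOE) of mice. Within this class they were taken by symbol, and they comprise the glutathione S-transferases of the Gsta, Gstm, Gstp, Gstt, Gsto and Gstk families, the UDP-glucuronosyltransferases of the Ugt1 and Ugt2 families, the cytosolic sulfotransferases (Sult), the aldehyde dehydrogenases (Aldh) and the flavin-containing monooxygenases (Fmo). The rule took 85 of the 24421 genes in the count table: 21 Aldh, 20 Gst, 19 Sult, 18 Ugt and 7 Fmo genes. Fmod, a matrix protein gene whose symbol begins alike, was left out, and so were pseudogenes.

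RNA was sequenced from whole MOE of mice that carried 0, 1 or 2 copies of a deletion spanning Taar2-9, the olfactory trace amine-associated receptor genes. There were 3 wild type, 4 heterozygous and 4 homozygous libraries, all labelled as C57BL/6 mice at P1-P2 and none treated, whereas the study's reporting notes give an older age and a mixed strain background for this line. All deletion animals carried the same, previously made allele. The labels give neither sex nor litter, nor whether a library came from 1 animal, so the p-values below measure the spread between these libraries only.

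Odorants reach the nasal mucosa continuously and have to be cleared. In classical detoxification, oxidising enzymes such as the cytochromes P450, Fmo and Aldh proteins add or expose a polar group, and conjugating enzymes then attach glutathione, glucuronic acid or sulfate. In the olfactory mucosa many of these enzymes are made by sustentacular cells, the supporting cells that surround the sensory neurons, and by Bowman's glands. Fmo enzymes oxidise amines, among them trimethylamine, a ligand of Taar5, which is one of the deleted receptors.

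The libraries held 9239866 to 14632525 counts. The 14 olfactory Taar genes together had 94, 87 and 119 counts in the wild type libraries, 96, 89, 68 and 31 in the heterozygous libraries and 1, 1, 2 and 3 in the homozygous libraries, which fits the labels. All 6 mature sensory neuron markers and all 9 sustentacular markers were detected. The libraries fell into 2 sets along the first principal component of the genes that are not members (41.6% of the variance): wild type 1 and 2, heterozygous 3 and 4 and homozygous 1 and 2 in set 1, the other 5 in set 2. Xist, which is transcribed from the inactive X chromosome of females, was at 1326 to 4293 CPM (counts scaled to a library of 1000000) in all 3 wild type libraries, heterozygous 3 and homozygous 1, and at 0.880 to 1.70 CPM in the other 6, so that the Xist level moved with genotype and no wild type library had a low one. In homozygous 2 the ribosomal precursor Rn45s took 25.8% of the counts.

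Upstream sequence is shown for Gstm1 and Ugt2a1, the highest glutathione transferase and the highest glucuronosyltransferase, and for Sult1d1 and Fmo2, 2 members whose levels in each library are given below. Each line gives the 250 bases before the annotated start, 5′ to 3′ on the strand of the gene, from RefSeq on GRCm38.p6. Capitals mark a TATA box core (TATAAA) or a CCAAT box (CCAAT) on either strand.
Gstm1, minus strand, chr3:108017974-108018223: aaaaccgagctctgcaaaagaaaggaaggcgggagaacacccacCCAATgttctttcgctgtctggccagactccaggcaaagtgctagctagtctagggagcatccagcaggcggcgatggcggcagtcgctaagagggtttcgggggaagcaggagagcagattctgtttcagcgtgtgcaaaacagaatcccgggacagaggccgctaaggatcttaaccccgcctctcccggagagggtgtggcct
Ugt2a1, minus strand, chr5:87490872-87491121: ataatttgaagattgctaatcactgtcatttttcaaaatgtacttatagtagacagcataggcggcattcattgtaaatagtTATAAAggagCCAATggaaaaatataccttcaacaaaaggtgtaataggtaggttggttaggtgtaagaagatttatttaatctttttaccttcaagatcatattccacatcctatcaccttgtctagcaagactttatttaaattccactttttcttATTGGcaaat
Sult1d1, minus strand, chr5:87569007-87569256: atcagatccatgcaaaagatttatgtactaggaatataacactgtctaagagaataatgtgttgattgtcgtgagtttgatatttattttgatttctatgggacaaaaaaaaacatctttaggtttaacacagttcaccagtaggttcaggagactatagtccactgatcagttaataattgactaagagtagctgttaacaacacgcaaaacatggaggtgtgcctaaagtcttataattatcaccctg
Fmo2, minus strand, chr1:162898759-162899008: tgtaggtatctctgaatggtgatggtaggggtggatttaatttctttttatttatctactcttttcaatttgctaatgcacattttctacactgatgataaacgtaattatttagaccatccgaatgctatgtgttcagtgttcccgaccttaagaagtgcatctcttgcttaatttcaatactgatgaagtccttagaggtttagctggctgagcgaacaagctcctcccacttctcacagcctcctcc
The Ugt2a1 window held both motifs and the Gstm1 window shown a CCAAT box. A second RefSeq start of Gstm1, with its window at chr3:108017819-108018068, had a TATA box core and 2 CCAAT boxes before it, while the windows of Sult1d1 and Fmo2 held neither. The RefSeq starts of Fmo5 and Fmo6 lay at the second exon of their GENCODE models, so their windows are not shown.

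Across the 70 of 85 members with a RefSeq window (1 start per gene, both strands, motifs allowed to overlap), CCAAT was found in 30 (42.9%) against 34.5% of all 27025 genes, and TATAAA in 11 (15.7%) against 13.0%. The windows of Fmo5 and Fmo6 were among the 70, and that of Fmo5 counted for CCAAT and for TATAAA. TGACNNNGC, the core of the antioxidant response element, through which Nrf2 acts on many Gst genes in liver, was found in 4 members (5.71%) against 10.1% of all genes. CCCNNGGG, a motif of the Ebf factors of sensory neurons, was found in 7 (10%) against 11.7%. These shares are descriptions of letters in short windows.

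The mucosa of these mice held a few very abundant conjugating enzymes and a long tail of rare ones. Levels were compared between genes as CPM per kb of exon, averaged over all 11 libraries. On that scale 3 members were above 100 CPM per kb, 31 above 10 and 49 above 1, and the 10 highest members held 69.3% of the summed level of all 85. The median member stood at 2.13 CPM per kb, against 2.30 for all genes with an exon length. The abundance of the class therefore rested on few genes, as the plot of the 20 highest members shows.

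**Figure D1:**
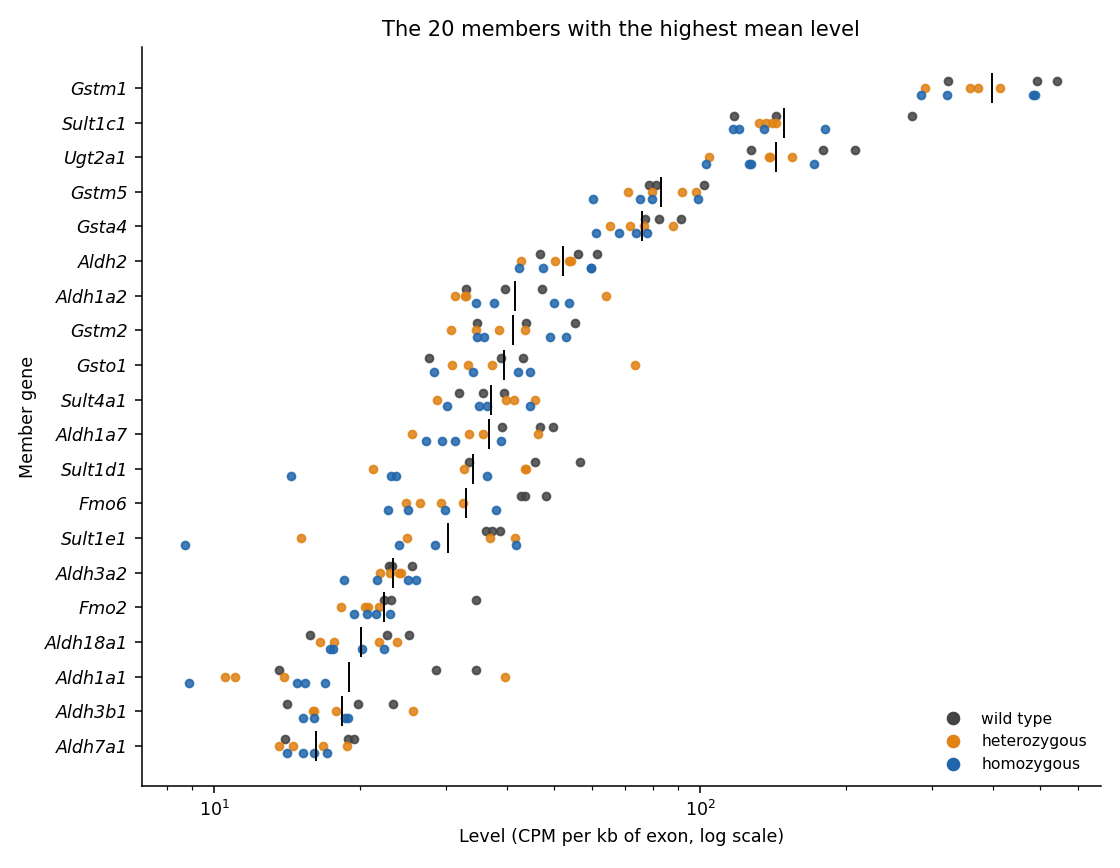
Level of the 20 members with the highest mean, in CPM per kb of exon on a log axis, with 1 point per library coloured by genotype and a bar at the mean over the 11 libraries. Gstm1 lies above all other members in every library, and Sult1c1 and Ugt2a1 overlap.

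Gstm1, a mu class glutathione transferase, was the highest member at 398 ± 91.7 CPM per kb (SD, n = 11) and ranked 30 among all genes. It alone held 26.0% of the summed level of the members. In CPM it stood at 727, 801 and 476 in wild type, at 550, 529, 427 and 610 in heterozygous and at 475, 419, 718 and 713 in homozygous libraries. The ranges of the 3 genotypes overlapped, and the highest value was that of wild type 2. Gstm1 lies at chr3:108012255-108017973 (mm10) in a row of 7 Gstm genes spanning 149 kb, of which 6 were high enough to test. Gstm5 (83.3 ± 13.0 CPM per kb) and Gstm2 (41.3 ± 8.24) also ranked among the 10 highest members, whereas Gstm3 of the same row had at most 5 counts in any library.

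The other Gst families were led by 1 gene each. Gsta4, which conjugates the lipid peroxidation product hydroxynonenal, stood at 75.8 ± 9.18 CPM per kb (SD, n = 11) and Gsto1, an omega class enzyme that also reduces dehydroascorbate, at 39.5 ± 12.7. Gstt3, of the theta class, stood at 10.1 ± 1.43, Gstp1, of the pi class, at 9.74 ± 1.06 and Gstk1, of the mitochondrial and peroxisomal kappa class, at 4.52 ± 1.48. Near copies limited 2 of these families. Gstp1 and Gstp2 share sequence (66.5% and 45.9% of their 51-base stretches are unique), and the counts gave Gstp1 125 to 231 per library and Gstp2 a single read in all. Gsta1 (9.73% unique) had 2 reads in all and Gsta2 (50.98% unique) 0.379 to 1.96 CPM.

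Glucuronidation genes were dominated by Ugt2a1, the glucuronosyltransferase known from olfactory mucosa, at 143 ± 32.3 CPM per kb (SD, n = 11), rank 146 among all genes. Ugt2a1 and its neighbour Ugt2a2 (13.6 ± 4.78) are read from one locus, chr5:87459490-87490871 (mm10), with separate first exons and shared later exons. Ugt2a1 has 799 of its 2570 exon bases to itself and 68.4% of its 51-base stretches occur in Ugt2a2 too. How reads in the shared exons were assigned is not given in the sources used here, so the split between both genes is uncertain. All Ugt2a1 counts divided by its own exon bases alone gave 462 CPM per kb, above Gstm1. That value and order hold only if no read in the shared exons was counted for Ugt2a1. The Ugt1 genes, which are built from 1 shared tail and many first exons on chromosome 1, were rare. Their highest member, Ugt1a6b, which conjugates phenols, reached 0.952 ± 0.417 CPM per kb and only 20.4% of its stretches were unique, while Ugt1a5, Ugt1a9 and Ugt1a10 were at 0 counts in all libraries. Of the 18 Ugt genes 5 could be tested.

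Sulfation genes were led by Sult1c1, a sulfotransferase known from olfactory tissue, at 149 ± 44.6 CPM per kb (SD, n = 11), rank 141. It did not differ from Ugt2a1, its neighbour in the order, beyond the spread between libraries. One library stood apart: Sult1c1 was at 424 CPM in wild type 1, against 223 and 183 in wild type 2 and 3, 205, 218, 212 and 223 in heterozygous and 281, 210, 187 and 182 in homozygous libraries. Sult4a1, a brain-enriched form, stood at 37.2 ± 5.61 CPM per kb, Sult1d1, which sulfates catecholamines, at 34.0 ± 12.7 and Sult1e1, the estrogen sulfotransferase, at 30.4 ± 11.1. Of the 9 Sult2 genes, which act on steroids and bile acids in liver, only Sult2b1 was tested (1.55 ± 0.285 CPM per kb). Sult2a5, Sult2a7 and Sult3a1 were at 0 counts throughout.

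Aldehyde dehydrogenases were spread more evenly, and 19 of 21 were tested. Aldh2, the mitochondrial enzyme that clears acetaldehyde, was highest at 52.2 ± 6.76 CPM per kb (SD, n = 11) and made up 16.5% of the summed level of its class. The 3 enzymes that make retinoic acid from retinaldehyde were all present: Aldh1a2 at 41.5 ± 10.8, Aldh1a1 at 18.9 ± 10.5 and Aldh1a3 at 14.4 ± 2.47 CPM per kb. Aldh1a7, the close relative of Aldh1a1 that lies beside it on chromosome 19 and has 92.8% unique stretches, stood at 36.7 ± 8.30, above Aldh1a1 in every library on the CPM per kb scale. Without division by exon length the order of the means was reversed, at 93.4 CPM for Aldh1a1 and 75.8 CPM for Aldh1a7. Members of general metabolism followed: the fatty aldehyde dehydrogenase Aldh3a2 at 23.3 ± 2.11, the proline synthesis enzyme Aldh18a1 at 20.1 ± 3.24, Aldh3b1 at 18.3 ± 3.53 and the lysine breakdown enzyme Aldh7a1 at 16.2 ± 2.12 CPM per kb.

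Of the Fmo genes, Fmo4, Fmo1, Fmo2 and Fmo6 lie near each other on chromosome 1, Fmo9 lies apart on the same chromosome and Fmo5 lies on chromosome 3. Fmo6, which is thought to be a pseudogene in human but is listed as a gene in mouse, was the highest at 33.0 ± 8.75 CPM per kb (SD, n = 11) and held 49.6% of the summed level of its class. Fmo2, the lung enzyme, followed at 22.4 ± 4.32 and Fmo1 at 7.52 ± 1.05. Fmo5 stood at 2.91 ± 0.797 and Fmo4 at 0.329 ± 0.150. Fmo4 therefore rested on 4 to 25 counts per library, and Fmo9 had a single count in all.

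Of the 85 members 56 passed the filter on low counts and were tested. Of the 29 others, 22 had at most 5 counts in any library and 7 were at 0 in all of them: Sult2a5, Sult2a7, Sult3a1, Ugt1a5, Ugt1a9, Ugt1a10 and Ugt2b34. A count of 0 allows up to 3 counts in a library, for counting error only. The unseen and nearly unseen members were mostly Sult2, Ugt1 and Ugt2 genes, with 8 of 9 Sult2 genes, 5 of 8 Ugt1 genes and 8 of 10 Ugt2 genes among them.

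The first comparison asked whether loss of both copies of the Taar cluster went with other levels of these enzymes. In homozygous against wild type MOE, 41 of the 56 tested members had a lower mean, with a median log2 fold change of -0.15 against 0.015 over all 16574 tested genes, of which 47.2% were lower. Every class had more members lower than higher or as many (15 of 19 Aldh, 11 of 16 Gst, 5 of 10 Sult, 5 of 5 Ugt and 5 of 6 Fmo). No member passed the edgeR quasi-likelihood test at an adjusted p of 0.05 (lowest adjusted p = 0.996), nor did any of all tested genes (0%). Without adjustment 7 members had p under 0.05, all lower in homozygous mice. That was 12.5% of those tested. Of all tested genes 1.21% were lower at that p, and 3.02% passed it in either direction. DESeq2 likewise called 0 members after adjustment, with 8 at an unadjusted p under 0.05. The count of 7 members ran from 6 to 18 over the other ways of processing given at the end.

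Marker genes of other cells also had different means between genotypes. All 6 markers of mature sensory neurons had a lower mean in both deletion genotypes, with a median log2 fold change of -0.27 for homozygous and -0.14 for heterozygous against wild type, though none at an unadjusted p under 0.05. Their sum was 1217 to 2133 CPM in wild type, 1272 to 1813 in heterozygous and 1174 to 1508 in homozygous libraries. All 8 skeletal muscle markers had a higher mean, at an unadjusted p under 0.05 in 5 of them for homozygous and in 8 for heterozygous mice. The 5 macrophage markers summed to 165 to 184 CPM in wild type, 175 to 222 in heterozygous and 188 to 236 in homozygous libraries, with 1 of 5 higher at an unadjusted p under 0.05 for homozygous and 2 of 5 for heterozygous mice. Of the 6 fibroblast and mesenchyme markers 1, Dcn, was lower at that p in both comparisons, and of the 8 tested Bowman's gland markers Obp1a was lower in homozygous and Muc5b higher in heterozygous mice. None of these passed after adjustment in edgeR, and the part of these cell types in the values of the members was not tested.

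In the order of that unadjusted p, those described here, all at an adjusted p of 0.996 in edgeR, were Fmo6 (log2 fold change -0.63 ± 0.17 SE), Fmo5 (-0.64 ± 0.20), Sult1d1 (-0.89 ± 0.31), Aldh1a7 (-0.51 ± 0.19), Aldh6a1 (-0.32 ± 0.13) and Ugt2a2 (-0.68 ± 0.28). Aldh6a1 is the mitochondrial methylmalonate semialdehyde dehydrogenase of valine breakdown. In 7 members the highest homozygous library was below the lowest wild type one, 12.5% of those tested against 2.48% of all tested genes. Among these were Fmo6, Fmo5, Fmo1, Aldh1a7, Aldh6a1 and Sult1b1, and no member lay wholly above. The summed level of all 85 members was 3983 ± 436 CPM in wild type (SD, n = 3), 3395 ± 329 in heterozygous (n = 4) and 3361 ± 242 in homozygous mice (n = 4), and ranged from 3579 to 4446, 3165 to 3867 and 3058 to 3639 CPM, so that the genotypes overlapped.

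**Figure D2:**
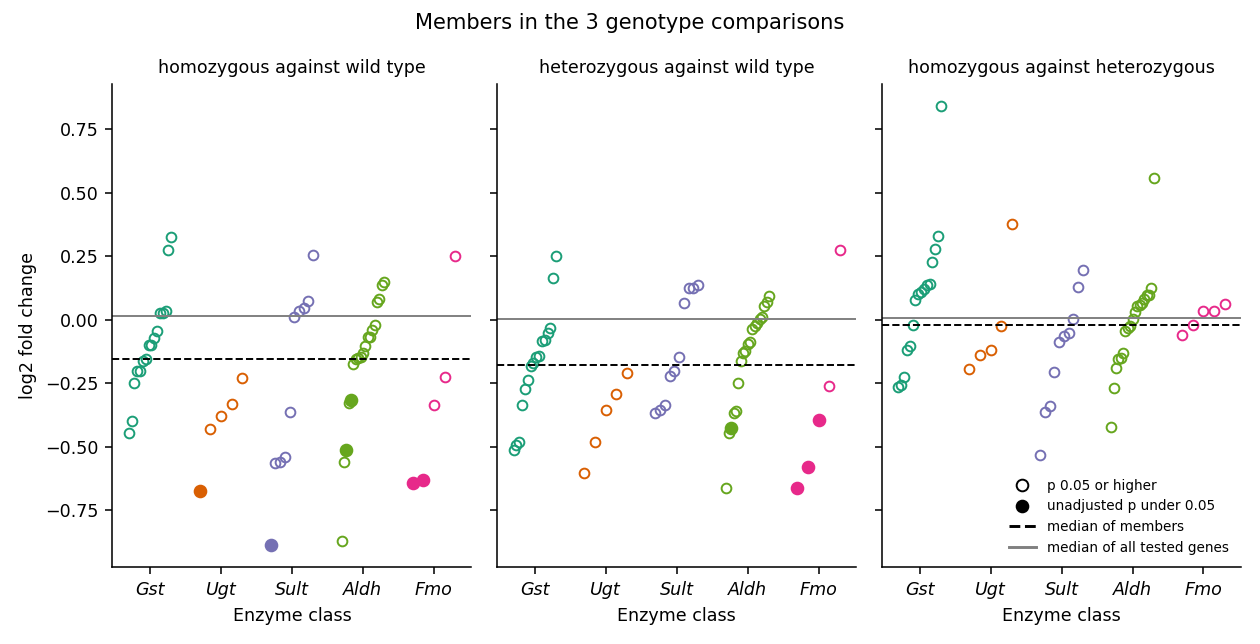
Log2 fold change of 55 of the 56 tested members by enzyme class in each genotype comparison, 1 point per gene, filled where the unadjusted p is under 0.05; the dashed line is the median of the members and the grey line that of all tested genes. Filled points occur against wild type, 6 for homozygous and 4 for heterozygous mice, all below 0, and none occurs between homozygous and heterozygous mice.

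Heterozygous mice, which keep 1 intact copy of the cluster, were compared with the same 3 wild type libraries, so these values share their controls with those above. Here 44 of 56 members had a lower mean, with a median log2 fold change of -0.18 against 0.0018 over all tested genes, of which 49.6% were lower. By the same edgeR test 0 members passed at an adjusted p of 0.05 (lowest adjusted p = 0.99997), as did 0% of all genes. DESeq2 also called 0, with 4 at an unadjusted p under 0.05. In edgeR 4 members (7.14%) had an unadjusted p under 0.05, all lower, whereas 0.495% of all tested genes were lower at that p and 2.24% passed it in either direction. They were Fmo6 (-0.66 ± 0.17 SE), Fmo5 (-0.58 ± 0.20), Fmo2 (-0.40 ± 0.16) and Aldh1l1 (-0.43 ± 0.18), a folate enzyme known from astrocytes. In Fmo6, Fmo2 and Aldh1l1 the highest heterozygous library was below the lowest wild type one, against 1.1% of all tested genes. The count of 4 members ran from 2 to 15 over the other ways of processing given at the end.

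Between homozygous and heterozygous mice, which differ by the last copy of the cluster, 29 of 56 members had a lower and 27 a higher mean in homozygous mice, with a median log2 fold change of -0.022 against 0.0062 over all genes, of which 48.2% were lower. In the edgeR test 0 members and 0% of all genes passed at an adjusted p of 0.05. Nor did any member have an unadjusted p under 0.05 (0.241% of all tested genes were lower at that p and 0.561% passed it in either direction), and DESeq2 also gave 0 at either limit. The member with the lowest p was Gsta2, at 0.61, 0.78, 0.38 and 1.92 CPM in heterozygous and 1.34, 1.96, 1.32 and 1.89 CPM in homozygous libraries (log2 fold change 0.84). Its heterozygous value was the highest in replicate 4, and the groups overlapped there.

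Fmo6 separated both deletion genotypes from wild type. It stood at 94.3, 83.8 and 85.2 CPM in wild type, at 57.3, 63.7, 48.5 and 52.0 in heterozygous and at 49.0, 44.6, 58.4 and 74.5 in homozygous libraries. Every deletion library was below the lowest wild type library, and homozygous 4 came nearest. Within set 1 the wild type mean was 89.1 CPM and the means of the heterozygous and homozygous libraries were 50.2 and 46.8. Within set 2 the single wild type library was at 85.2 and the means were 60.5 and 66.4. The deletion libraries with a high Xist level, heterozygous 3 and homozygous 1, were at 48.5 and 49.0 CPM, and with the Xist level as a covariate the log2 fold change was -0.84 for homozygous and -0.87 for heterozygous against wild type. Skeletal muscle markers also moved with genotype: their 8 genes summed to 26.8 ± 27.3 CPM in wild type (SD, n = 3), 582 ± 801 in heterozygous (n = 4) and 346 ± 358 in homozygous mice (n = 4). The muscle actin Acta1 was within its wild type range of 1.02 to 13.0 CPM in heterozygous 1, heterozygous 3 and homozygous 4, which had Fmo6 at 57.3, 48.5 and 74.5 CPM. The part of muscle RNA in the Fmo6 values was not tested.

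Fmo5 stood at 26.9, 22.5 and 16.7 CPM in wild type, at 12.5, 13.1, 14.9 and 18.6 in heterozygous and at 13.4, 13.4, 15.2 and 14.4 in homozygous libraries. All homozygous libraries were lower than every wild type library, while heterozygous 4 lay above wild type 3.

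Fmo2 and Fmo1 showed smaller differences. Fmo2 stood at 130.0, 125 and 194 CPM in wild type, at 102, 116, 122 and 115 in heterozygous and at 121, 109, 129 and 116 in homozygous libraries. Its difference rested on wild type 3: without that library the log2 fold change was -0.16 for heterozygous and -0.10 for homozygous mice. Fmo1 stood at 51.5, 56.7 and 52.1 CPM in wild type, at 36.7 to 55.2 in heterozygous and at 41.3 to 51.3 in homozygous libraries (log2 fold change -0.23 ± 0.15 SE for homozygous against wild type). Fmo4 went the other way in the mean (log2 fold change 0.25 ± 0.55 SE for homozygous against wild type) and spanned 0.37 to 2.02 CPM within wild type alone. Summed over the 7 genes, Fmo transcripts were at 304, 291 and 352 CPM in wild type, at 211, 235, 234 and 243 in heterozygous and at 234, 220, 246 and 249 in homozygous libraries. No deletion library reached the lowest wild type sum.

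**Figure D3:**
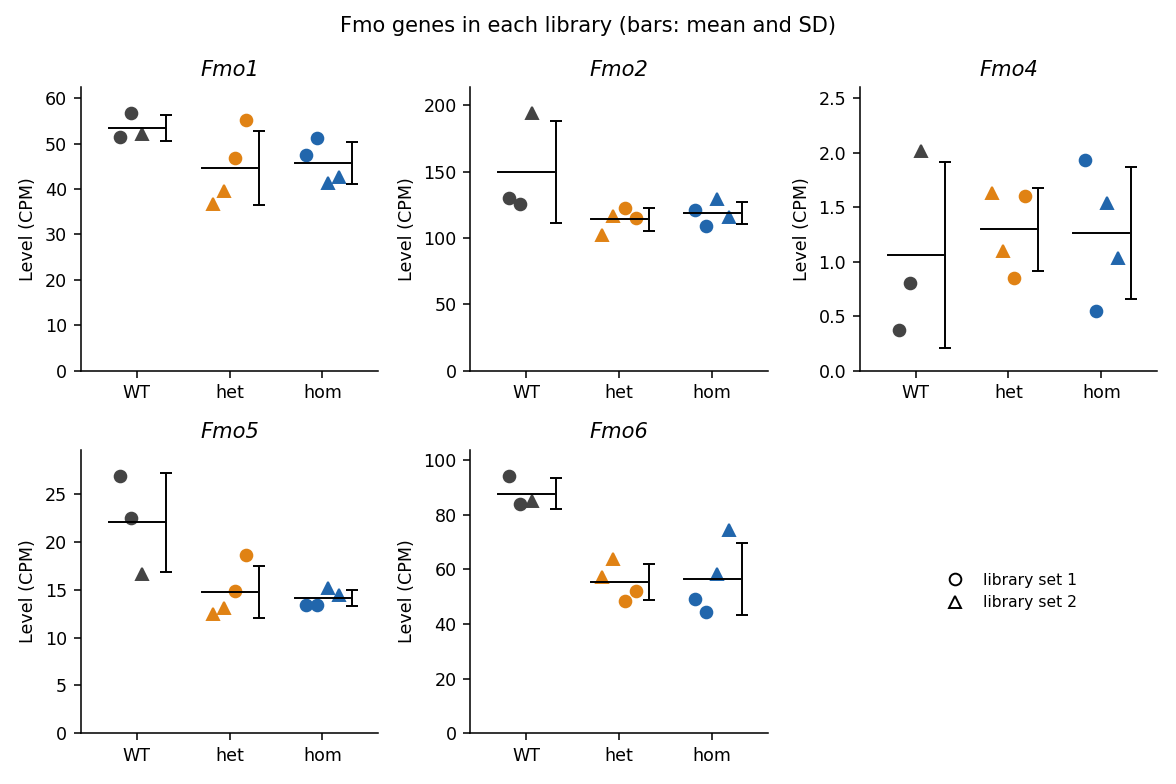
Level in CPM of 5 Fmo genes in each library of wild type (WT, n = 3), heterozygous (het, n = 4) and homozygous (hom, n = 4) mice; circles are library set 1, triangles set 2, horizontal lines the mean and vertical bars the SD. In Fmo6 all 8 deletion libraries (44.6 to 74.5 CPM) lie below the wild types (83.8 to 94.3 CPM), whereas Fmo4 overlaps.

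Among the sulfotransferases, Sult1d1 stood at 112, 82.3 and 139 CPM in wild type, at 52.2, 107, 108 and 80.3 in heterozygous and at 89.4, 57.0, 58.3 and 35.4 in homozygous libraries. Homozygous 1, the one with a high Xist level, lay within the wild type range. With the Xist level as a covariate the log2 fold change of homozygous against wild type was -0.40 and its unadjusted p was no longer under 0.05, against -0.89 without it. Its neighbours on chromosome 5 varied likewise between libraries: Sult1e1 ranged from 10.8 CPM in homozygous 4 to 51.9 CPM in homozygous 1, and Sult1b1, at 18.2, 16.6 and 19.0 CPM in wild type, was at 16.0, 12.9, 11.6 and 8.25 in homozygous libraries (log2 fold change -0.56 ± 0.27 SE, and -0.28 with the Xist level as a covariate). The lowest values of all 3 genes were in homozygous 4. These genes sit between Ugt2a1 and the end of a 702 kb block of 13 members, of which 5 were tested.

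Ugt2a1 was at 460, 327 and 535 CPM in wild type, at 269, 396, 356 and 358 in heterozygous and at 328, 264, 441 and 323 in homozygous libraries. The groups overlapped, and the log2 fold changes were -0.38 ± 0.22 SE for homozygous and -0.35 ± 0.22 for heterozygous against wild type. Without wild type 3 they were -0.22 and -0.19. Ugt2a2 was at 36.2, 35.6 and 64.2 CPM in wild type, at 24.2, 37.9, 25.0 and 43.0 in heterozygous and at 25.3, 19.9, 36.3 and 31.8 in homozygous libraries. Wild type 3 was by far the highest, and without it the log2 fold change of homozygous against wild type was -0.34. The 9 sustentacular markers, which include Ugt2a1, summed to 4781 ± 851 CPM in wild type (SD, n = 3), 4211 ± 459 in heterozygous (n = 4) and 4239 ± 887 in homozygous mice (n = 4), with 0 of 9 at an unadjusted p under 0.05 in either comparison with wild type. Of the 9, 7 had a lower mean in homozygous and 6 in heterozygous mice. Sec14l3 was at 704 to 851 CPM in wild type and 268 to 641 CPM in homozygous libraries, whereas Krt8 and Krt18 had a higher mean in both deletion genotypes. In whole tissue, fewer cells of a type and less RNA per cell cannot be told apart. Whether the sustentacular share had a part in the lower values of these members was not tested.

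Aldh1a7 was at 103, 96.8 and 80.7 CPM in wild type, at 52.7, 73.8, 69.0 and 95.8 in heterozygous and at 64.6, 60.8, 80.3 and 56.4 in homozygous libraries. The closest pair, wild type 3 and homozygous 3, differed by less than 1 CPM. Aldh6a1 was at 90.5, 76.7 and 90.2 CPM in wild type, at 70.1, 78.5, 68.0 and 89.6 in heterozygous and at 68.4, 74.0, 64.7 and 68.1 in homozygous libraries. Only the homozygous libraries lay wholly below wild type in these members. The retinoic acid producing members went no single way, with log2 fold changes for homozygous against wild type of -0.87 ± 0.46 SE for Aldh1a1, 0.14 ± 0.26 for Aldh1a2 and -0.15 ± 0.18 for Aldh1a3, none at an unadjusted p under 0.05.

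Other genes of the pathway, 59 in all, were taken from a fixed list: suppliers of the conjugated groups, other odorant-metabolising enzymes and regulators. Of these 55 could be tested, and in edgeR 0 passed at an adjusted p of 0.05 in any of the 3 comparisons. The median log2 fold changes were -0.067 for homozygous and -0.070 for heterozygous against wild type, nearer to those of all genes than those of the members were. At an unadjusted p under 0.05 there was 1 of the 55 in homozygous against wild type, which is no larger a share than that of all tested genes given above. It was Cyp26b1, which breaks down retinoic acid, at 42.3 ± 6.90 CPM (SD, n = 4) against 31.8 ± 3.13 (n = 3), a log2 fold change of 0.41. In homozygous against heterozygous mice the 1 of 55 was Cyp2a4, a steroid hydroxylase, where 0.561% of all tested genes passed. Cyp2a4 stood at 3.11, 1.96, 15.4 and 12.4 CPM in homozygous and at 1.15 to 3.29 CPM in heterozygous libraries, so that homozygous 3 and 4 were high and homozygous 1 and 2 lay within the heterozygous range. Cyp2a4 has near copies among the Cyp2a genes, so its value is uncertain.

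The suppliers of the conjugated groups were well expressed. Ugdh, which makes UDP-glucuronic acid, was at 188 ± 3.89 CPM in wild type (SD, n = 3) and 160.0 ± 8.25 in homozygous mice (n = 4), a log2 fold change of -0.23. Papss2, which makes the sulfate donor, was at 276 ± 44.4 CPM in wild type and 243 ± 23.8 in homozygous mice, and Gclc, the first step of glutathione synthesis, at 179 ± 42.5 and 195 ± 26.8. None of these 3 had an unadjusted p under 0.05. Cyp2a5 and Cyp2g1, the cytochromes P450 that act before conjugation in olfactory mucosa, were at 1893 ± 439 and 914 ± 248 CPM in wild type and at 1854 ± 433 and 771 ± 296 CPM in homozygous mice. Nfe2l2, which encodes Nrf2, ranged from 37.9 to 120.4 CPM over the libraries with like means in all genotypes (83.5, 77.6 and 78.1 CPM). It differed between the library sets, at 100.7 to 120.4 CPM in set 1 and 37.9 to 51.3 CPM in set 2.

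Differences between the library sets were larger than those between genotypes for several members. Set 1 held 2 wild type, 2 heterozygous and 2 homozygous libraries and set 2 held 1, 2 and 2, so sets and genotypes were nearly balanced. The values below are descriptions, since the sets were taken from these data. Aldh3b2, a membrane-bound fatty aldehyde dehydrogenase, had a log2 difference of 1.41 between set 1 and set 2, Sult1c2 0.99, Aldh1a1 0.85, the phenol transferase Ugt1a6a 0.81 and Aldh3a1, known from cornea, 0.70. For Aldh1a1 the log2 fold change of homozygous against wild type was as large, at -0.87. The lowest differences were those of Aldh16a1 (-0.59), Gstt2 (-0.47), the proline breakdown enzyme Aldh4a1 (-0.46), Fmo4 (-0.44) and the succinic semialdehyde dehydrogenase Aldh5a1 (-0.40).

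Aldh1a1 was at 171, 142 and 67.1 CPM in wild type, at 52.0, 68.8, 54.5 and 196 in heterozygous and at 83.5, 76.1, 73.3 and 43.8 in homozygous libraries. Wild type 1, wild type 2 and heterozygous 4 were high. The same 3 libraries had the highest Aldh3a1 (47.7, 31.7 and 52.5 CPM, against 13.7 to 26.2 in the others). The gland transcript Obp2a, an odorant-binding protein gene, was at 806 and 526 CPM in wild type 1 and 2 and at 1022 CPM in heterozygous 4, and at 0.161 to 284 CPM in the other libraries. Over all 9 Bowman's gland markers, of which 8 were tested and none was at 0 throughout, the sum ranged from 7781 to 27499 CPM in set 1 and from 4471 to 10620 CPM in set 2. The largest part of that sum was Bpifb9b, with a mean of 11001 CPM over all libraries. Another gland marker, Bpifb4, was at 1103 and 746 CPM in wild type 1 and 2 and at 584 CPM in heterozygous 4. In the other libraries Bpifb4 was at 334 to 1068 CPM. The part of gland RNA in the Aldh1a1 and Aldh3a1 values was not tested.

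**Figure D4:**
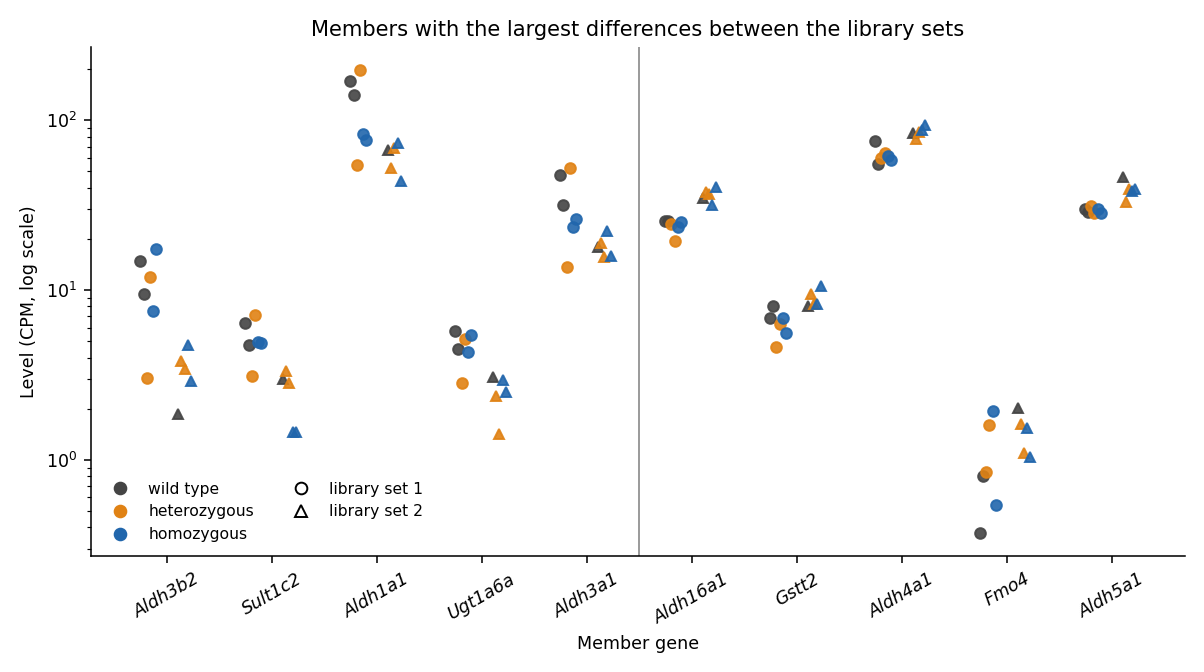
Level in CPM on a log axis of the 5 members with the largest positive and the 5 with the lowest log2 difference between the library sets, 1 point per library; circles are set 1, triangles set 2, colours the genotypes. For Aldh1a1, wild type 1, wild type 2 and heterozygous 4 lie at 142 to 196 CPM and the other 8 libraries at 43.8 to 83.5 CPM.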

How the data were processed

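Whole MOE RNA was turned into stranded libraries with polyA selection. Per the labels, the authors trimmed reads with Trimmomatic 0.36, mapped them with HISAT2 2.1.0 to mm10 and counted reads per gene with featureCounts (Subread 1.6.2). Which annotation and strand setting were used, and how reads that map to several places were handled, is not given in the sources used here. The deposited raw counts (24421 genes, 11 libraries of 9239866 to 14632525 counts) were the main input. The deposited normalised signal (23129 genes), which the authors' notes link to DESeq2 1.20.0, was used for 2 alternatives only, a level order and a restricted gene set.

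Differences were tested with edgeR 4.0.16 (R 4.3.3): TMM scaling, its filter on low counts by genotype (16574 genes kept), 1 quasi-likelihood fit of genotype over all 11 libraries, and Benjamini-Hochberg adjustment over all genes kept, with a threshold of 0.05. The script was checked on simulated data. SE is the log2 fold change divided by the square root of F. Levels are TMM-scaled CPM, divided by the union exon length in kb of GENCODE M21 (mm10) where genes are compared; 23350 symbols matched. Near copies were judged by the share of 51-base transcript stretches found in no other gene. Library sets came from the first principal component without the members.

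The text names the 20 highest members, the highest of each family, the tested Fmo genes, the Aldh1a genes, members with 0 counts, those with the lowest p among unadjusted p under 0.05 and those with the largest set differences; Sult1b1, Gsta2 and rare members were added after their values were seen. The class of enzymes, whose members were then taken by symbol, and the lists were chosen with earlier results of these data known, so the shares of members set beside those of all genes are descriptions. The result of 1 member is not reported here. The tables held 0 columns of no labelled sample. The alternatives were other scaling, DESeq2 1.42.0, other filters, a replicate block, the library set or Xist level as covariates, leaving out each library and other level scales.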

Additional observations from a re-analysis of the deposited data

Results flagged for a closer look

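Among the named members, 82 groups of 4 libraries were checked for a library far from the others, and 6 groups held one; chance gives about 1 in 20, but 4 of the 6 genes (Aldh1a1, Aldh3a1, Aldh3b2 and Sult1c2) were named for their difference between library sets, so the number is not to be read against chance. In 5 of them the library was heterozygous 4. Aldh1a1 stood there at 196 CPM against 52.0 to 68.8 CPM in the other heterozygous libraries, Aldh3a1 at 52.5 against 13.7 to 18.8, Aldh3b2 at 11.9 against 3.03 to 3.80, Gsto1 at 149 against 62.3 to 75.3 and Sult1c2 at 7.16 against 2.82 to 3.33 CPM. The same library had the highest level of the gland genes Bpifb9b (25167 CPM), Obp2a (1022 CPM) and Obp1a (76.0 CPM). It also had the highest level of the muscle gene Acta1 (446 CPM). The other gland markers, Bpifb4, Sox9, Muc5b, Aqp5, Dcpp1 and Dcpp3, were highest in other libraries. Bpifb4 was at 584 CPM in heterozygous 4 against 1103 CPM in wild type 1. The part of gland and muscle RNA in these values was not tested. In the sixth group Aldh1a2 stood at 145 CPM in heterozygous 3, against 70.9 to 74.6 CPM in the other heterozygous libraries.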

How the results depend on the processing

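The count of members past an adjusted p of 0.05 was 0 in each of the 3 comparisons under all 20 alternatives, and so was that of the other pathway genes. Members with an unadjusted p under 0.05 numbered 7 for homozygous against wild type and 6 to 18 over the alternatives, 4 for heterozygous against wild type and 2 to 15, and 0 for homozygous against heterozygous and at most 2. Leaving out heterozygous 1 made the heterozygous count 2, leaving out wild type 3 made it 7 and leaving out heterozygous 4 made it 9, and in homozygous against heterozygous mice the 2 came without heterozygous 1 and with both covariates named next. The highest counts against wild type, 18 and 15, came with both library set and Xist level as covariates, which was added after the data were seen. Replicate numbers did not pair the libraries (same-numbered libraries correlated at -0.58 to 0.42), and with the replicate block these counts were 6, 4 and 1, with 0 members past the adjusted threshold and a log2 fold change of -0.70 for Fmo6 in homozygous mice. Same-numbered wild type and homozygous libraries, which shared a library set, correlated at 0.33 to 0.42. Wild type 3 and homozygous 4, of the same set but unlike number, correlated at 0.47. Of the log2 fold changes recomputed, only that of Sult1d1 changed direction: heterozygous against wild type it was -0.36, 0.16 after Xist was entered as a covariate and 0.17 after set and Xist were, and the cause was not tested. Fmo6 stayed between -0.84 and -0.54 for homozygous and between -0.87 and -0.61 for heterozygous against wild type. Gsta2, 0.84 in homozygous against heterozygous mice, was 1.40 without heterozygous 4. Fmo5 without wild type 1 was -0.47 for homozygous and -0.41 for heterozygous mice. Of the 10 highest members, 7 to 10 were the same in the alternatives and 9 to 10 with 1 library left out; with wild type libraries alone Aldh1a7, Sult1d1 and Fmo6 entered. Fmo4 and the Ugt1 genes rest on few counts, and depth limits what can be said of them. No batch is named in the labels, and Xist level and genotype are only partly separable, since no wild type library had little Xist and 1 heterozygous and 1 homozygous library had much.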
